A study of Bos taurus with 20 samples.

Results

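Sperm libraries of 6 bulls held 2599 to 3720 genes each, and libraries of 7 other bulls held 708 to 1637, although all were made from the same kind of sample. These gene-rich and gene-poor libraries are described here. They were chosen by counting, in each library, the genes with a value above 0: 2500 or more made a library gene-rich and 1700 or fewer made it gene-poor. Of the 20 libraries, High replicate 9 and Low replicate 8 carry one and the same profile, which entered neither set, and 5 of the remaining 18 fell between the limits. Because the number of genes chose the libraries, that number and everything about which genes were seen are given as a description, without a test.

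The series sequenced messenger RNA of frozen-thawed semen from Holstein-Friesian bulls, 10 of high fertility (High) and 10 of low fertility (Low), to ask whether sperm RNA differs with fertility. By the design text a library stands for 1 bull, with semen of 3 ejaculates pooled, and the bulls received no treatment that the labels name other than their selection by a statistical model. RNA was extracted with Trizol with removal of genomic DNA, and libraries were made with NEBNext chemistry meant for single cells or little input. Values are normalised and close to CPM (CPM-like), where CPM means counts scaled to a common library total. The deposited columns did not sum to a common total. Genes are known by Ensembl identifiers that the files do not pair with symbols, so sperm markers and markers of other cells in semen could not be looked up, and the label of the tissue was not checked. In such bulk samples, fewer cells and less RNA per cell cannot be told apart.

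A mature sperm cell has a condensed nucleus, very little cytoplasm and no ongoing transcription, and the RNA it carries is a remnant of spermatogenesis, much of it fragmented. Semen may also hold round germ cells, leukocytes and epithelial cells, each with far more RNA than a sperm cell. From so little RNA, a library is built by copying complementary DNA many times before sequencing, and a transcript enters it only if at least 1 of its molecules is captured at the start. The number of genes seen is therefore a common measure of how diverse a low-input library is.

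The gene-rich libraries were Low replicate 18 with 3720 genes, Low replicate 1 with 3615, High replicate 14 with 3297, Low replicate 5 with 3065, High replicate 6 with 2908 and Low replicate 4 with 2599. The gene-poor libraries were High replicate 3 with 1637 genes, Low replicate 7 with 1560, High replicate 12 with 1502, High replicate 16 with 1383, Low replicate 20 with 1223, Low replicate 11 with 879 and High replicate 2 with 708. Just outside the limits lay High replicate 10 with 2365 genes and Low replicate 13 with 1774, so the gap to the nearest library was wider on the gene-rich side. Both fertility classes stood on both sides. The gene-rich libraries were 2 High and 4 Low, the gene-poor ones 4 High and 3 Low, and this split was not detectably uneven (Fisher's exact test, two-sided p = 0.592, adjusted over 3 library-level tests 0.592). With so few libraries, a moderate difference could not have been seen.

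Gene-rich libraries also had more reads as recovered from the deposited values, a measure the choice did not use. Each total sums the values of a column divided by its smallest value above 0, so it counts reads given to genes. For none of the gene-poor libraries could this step be checked independently. In units of 1000000 reads (M), the gene-rich libraries lay between 17.1 M and 49.5 M (median 21.1 M), and the gene-poor ones between 9.43 M and 16.3 M (median 12.5 M), so the ranges did not overlap. The means were 25.5 ± 11.97 M (SD, n = 6) and 12.6 ± 2.53 M (SD, n = 7). With the class as a covariate, gene-rich libraries had 14.3 M more reads (two-sided exact permutation within class, p = 0.00190, adjusted 0.00571). This p is the smallest that the 525 possible assignments can give. The same order held in each class: the 2 gene-rich High libraries had at least 19.9 M against at most 16.3 M, and the 4 gene-rich Low libraries at least 17.1 M against at most 14.2 M. High replicate 14, at 49.5 M, raised the difference, which was 7.99 M without it (exact permutation p = 0.00571).

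The in-between libraries, which have more genes than the gene-poor ones by the limits, had about the same number of reads. They held 1774 to 2365 genes with 9.90 M to 16.5 M reads. When each library was thinned at random to the 9426708 reads of the smallest one, the gene-rich libraries still held 2586 to 3708 genes. Of their genes, 98.1% to 99.7% remained. Thinning could remove few genes, since 2.18% to 3.23% of the genes seen in a gene-rich library had 10 reads or fewer. It thins copied reads and not captured molecules, so the effect of less captured RNA was not tested. The median gene seen in a gene-poor library had 1305 to 5647 reads, and the median gene of a gene-rich library had 835.5 to 1953. Genes at 10 reads or fewer numbered 45 to 79 in gene-poor and 73 to 102 in gene-rich libraries.

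**Figure D1:**
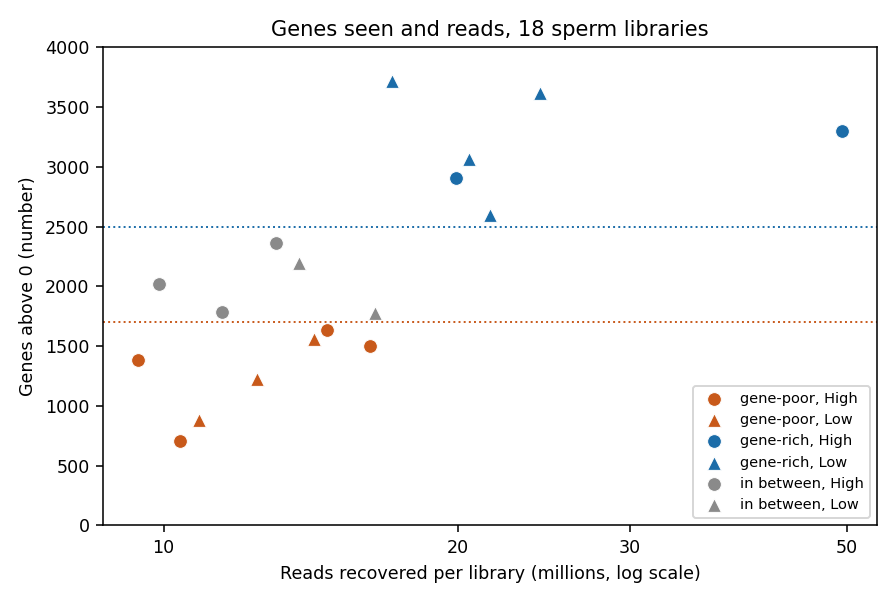
Each point is 1 of 18 libraries, with reads recovered from the values (M, 1000000 reads) on a log axis and the number of genes above 0 on the other axis; colour gives the set, shape the fertility class, and dotted lines the limits of 2500 and 1700 genes. All 6 gene-rich libraries lie to the right of all 7 gene-poor ones. The 5 in-between libraries lie at 9.90 M to 16.5 M and the gene-poor ones at 9.43 M to 16.3 M.

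Genes that gene-rich libraries held and no gene-poor library did, called added genes here, were many and thinly spread. Together they held 7016 genes and the gene-poor libraries 3782, with 3259 in both. Gene-rich libraries alone held 3757 genes, which is 53.5% of all genes they held. Gene-poor libraries alone held 523 genes, or 13.8% of theirs, although they were 1 library more. Of the 3757 added genes, 2249 (59.9%) were seen in a single gene-rich library, 801 in 2, 379 in 3, 201 in 4, 89 in 5 and 38 in all 6. The 6 libraries thus had few of these added genes in common. Genes that only some gene-poor libraries saw are not counted as added. Of the genes in all 6 gene-rich libraries, 67 were seen in 1 gene-poor library, 125 in 2 and 143 in 3.

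The added genes took a large part of the gene list and a small part of the RNA. In a gene-rich library 799 to 1363 genes were absent from every gene-poor library, and they held 3.28% to 6.54% of its summed values, with a median of 5.43%. A gene-poor library had 31 to 141 genes that no gene-rich library held, with 0.878% to 1.57% of its sum. At the other end, 171 genes had a value of 1 or more in all 18 libraries, and these core genes held 58.3% to 67.8% of the sum in gene-rich libraries (62.0% ± 3.404, SD, n = 6) and 56.7% to 71.5% in gene-poor ones (66.4% ± 5.21, SD, n = 7). These ranges overlap, and Low replicate 11, a gene-poor library, had the lowest share of all. Genes outside the core that both sets held gave most of the remainder. Their share of the sum was 28.9% to 35.1% in gene-rich and 27.5% to 41.8% in gene-poor libraries. A median of 1982.5 such genes was seen in a gene-rich library and 1124 in a gene-poor one.

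**Figure D2:**
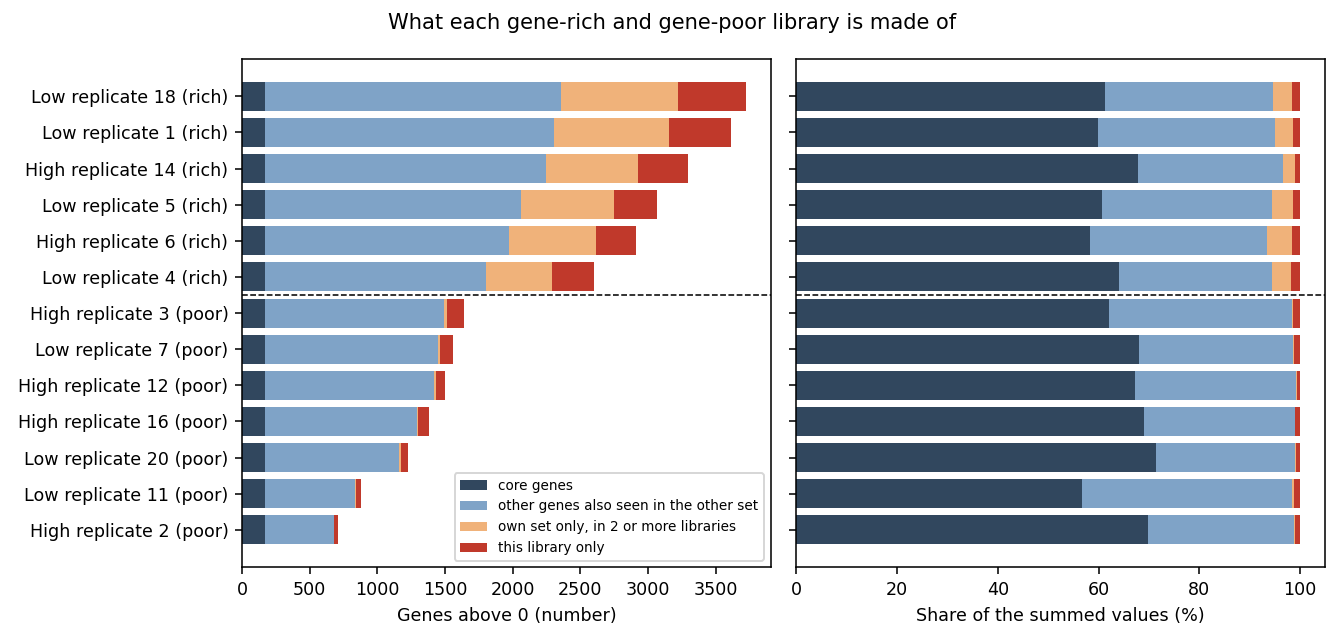
Bars show, for each gene-rich (above the dashed line) and gene-poor library, the number of genes above 0 and the share of the summed values in percent, divided into the 171 core genes, other genes also seen in the other set, genes of the own set alone in 2 or more libraries, and genes held by 1 of these 13 libraries alone. Genes of the own set alone are a visible part of the gene number in gene-rich libraries and hold 3.28% to 6.54% of the sum there.

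Added genes were low in level but were not single reads. Their median value where seen was 40.5, at a median of 781 reads, and 93.5% of the sightings rested on more than 100 reads, against 3.39% on 10 reads or fewer. The more gene-rich libraries held an added gene, the higher it stood: the median value was 35.1 for genes in 1 gene-rich library, 44.5 for those in 3 and 71.3 for those in all 6. The 523 genes of gene-poor libraries alone had a median of 92.0 where seen, with 86.4% of the sightings above 100 reads. Of these, 484 were in a single gene-poor library.

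Libraries that took no part in the choice of these genes also held some of them. Of the 3757 added genes, 1182 (31.5%) appeared in at least 1 of the 5 in-between libraries, and this share rose with the number of gene-rich libraries, from 18.9% for genes in 1 of them to 53.3% for genes in 3 and 92.1% for genes in all 6. Of the 523 genes of gene-poor libraries alone, 118 (22.6%) appeared there. A gene-poor library looked much like these when it was itself held out. Between 65 and 290 of its genes, 9.18% to 17.7%, were held by gene-rich libraries and by none of the other 6 gene-poor ones. In the in-between libraries such genes made up 15.5% to 18.7%, counted against all 7 gene-poor libraries.

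Gene-poor libraries were largely contained in gene-rich ones, but not in one another. Between 91.4% and 95.6% of the genes of a gene-poor library were seen in at least 1 gene-rich library. A single gene-rich library held 63.8% to 86.2% of the genes of a single gene-poor library, with a median of 76.0% over 42 pairs, and the reverse share was 16.3% to 40.2% with a median of 32.1%. One gene-poor library held 29.3% to 67.7% of the genes of another. This is a share between single libraries, so it cannot be set against the share held by 6 libraries together. Even 2 gene-rich libraries differed, as each held 48.0% to 68.6% of the genes of the other. These shares rise with the length of the list that is searched, so they describe the lists and do not rank the libraries.

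The level of a gene in the in-between libraries, which neither set used, followed how often it was seen in both. For the 17 genes with a mean over 10000 there, every gene-rich and every gene-poor library saw all of them. For the 146 genes with a mean of 1000 to 10000, the share seen was 99.3% to 100% in gene-rich and 80.8% to 99.3% in gene-poor libraries. Among 796 genes with a mean of 100 to 1000, it was 84.7% to 95.7% against 33.0% to 66.5%, and the sets did not overlap. Among 2572 genes with a mean of 10 to 100, it was 35.8% to 52.9% against 6.34% to 20.0%. Among 833 genes at 1 to 10, it was 22.0% to 35.9% against 6.48% to 15.5%. The difference thus lay in genes of middle and low level, and it was present in every class below 1000.

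**Figure D3:**
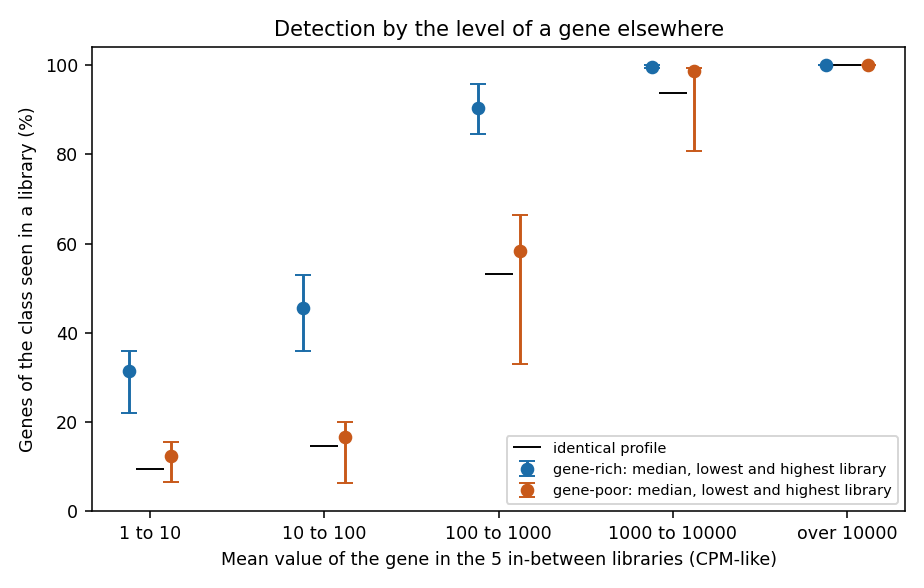
Genes are grouped by their mean value in the 5 in-between libraries (CPM-like), and the other axis gives the percentage of each class seen in a library; points are the median library of each set, bars reach from the lowest to the highest library, and black dashes give the profile shared by High replicate 9 and Low replicate 8. Gene-rich libraries lie above gene-poor ones in the 3 classes below 1000, while both reach 100% above 10000.

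Among the 1020 genes seen in all 6 gene-rich libraries, the level graded with the number of gene-poor libraries that saw the gene. The 212 genes that all 7 gene-poor libraries saw had a median of 1370 for their mean over gene-rich libraries. This median was 296 for the 157 genes seen in 5 gene-poor libraries, 201 for the 143 genes seen in 3, 129 for the 67 genes seen in 1, and 98.6 for the 38 genes seen in none. The in-between libraries gave the same order, with medians of 1269, 241, 123, 60.0 and 51.2. No gene (0) was seen in all 7 gene-poor libraries and in no gene-rich one.

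**Figure D4:**
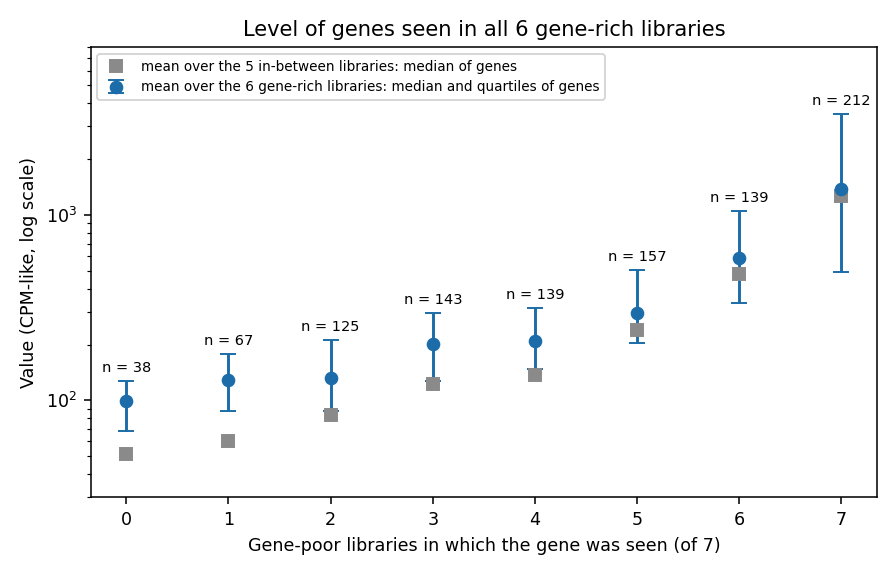
Genes seen in all 6 gene-rich libraries are grouped by the number of the 7 gene-poor libraries that saw them; blue points are the median, with quartile bars, of the genes' mean value over gene-rich libraries and grey squares the median over the in-between libraries (CPM-like, log axis), with the number of genes above. The level rises from a median of 98.6 for genes seen in no gene-poor library to 1370 for genes seen in all 7.

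For the 38 genes seen in every gene-rich and in no gene-poor library, means over gene-rich libraries ran from 10.4 to 305. They lay far below the median of 1849 for core genes. Core genes themselves ran from 3.05 to 57817, so some of the core stood below all 38. In the in-between libraries 35 of the 38 were seen at least once, but only 2 were seen in all 5. The highest of them was ENSBTAG00000039851. Its values in the gene-rich libraries were 889 in Low replicate 1, 349 in Low replicate 5, 290 in High replicate 6, 140 in Low replicate 4, 139 in Low replicate 18 and 22.1 in High replicate 14. These rest on 782 to 15721 reads, and the spread among libraries that all saw the gene was as large as its mean (305 ± 309, SD, n = 6; 188 without Low replicate 1). It was at 0 in all 7 gene-poor libraries, where a count of 0 allows up to 3 reads, or a value of 0.155 to 0.312, for counting error only. In the in-between libraries it was 241 in High replicate 17, 70.8 in Low replicate 19, 23.0 in Low replicate 13, 3.08 in High replicate 15 and 0 in High replicate 10. Its mean of 67.5 in those libraries puts it among the genes of which gene-poor libraries saw 6.34% to 20.0%. Its mean of 305 in gene-rich libraries lies near the median of 296 for genes that 5 gene-poor libraries saw, and above the median of 98.6 for the 38, so the placing by level differs between these libraries.

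More of the genes outside the core that both sets saw had higher values, where seen, in gene-poor than in gene-rich libraries. For the 1629 such genes seen in 2 or more libraries of each set, the mean log2 value over the libraries that saw the gene was lower in gene-rich libraries for 966 and higher for 663, with a median difference of -0.33. On shares of the column sum the counts were 1129 and 500, with a median of -0.69. Over all 3088 such genes seen in at least 1 library of each set, 2108 were lower and 980 higher, with a median of -0.78, or -1.14 on shares of the column sum. The median value of a seen gene was 55.1 to 87.4 in gene-rich and 136 to 339 in gene-poor libraries. The levels where seen count only libraries that saw the gene, so genes missed in a library do not lower them. In a library with fewer genes the total is divided among fewer, so the choice by gene number favours higher values where seen. The counts and medians of this paragraph are therefore a description and no separate finding.

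The core genes allowed a comparison of levels in genes that every library saw, so each of the 171 added the same to every count. Detection still chose the core, because a gene missed in any of the 18 libraries was left out. Levels of the core were compared by limma on log2(value + 1) with the fertility class as a covariate. Of these, 3 genes (1.75%) passed an adjusted p of 0.05, all higher in gene-rich libraries, and 0 passed in the lower direction (0%). Without adjustment 34 genes (19.9%) had a p under 0.05, all 34 of them higher. The median difference was 0.48 log2, within a range of -1.33 to 2.55, and 137 of the 171 were above 0. The median 95% interval of a core gene reached 1.18 log2 to either side.

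The scale of the deposited values moved with the sets, and the common shift was smaller on other scales. The values of a column summed to 1.02 M to 1.395 M (M, 1000000) in gene-rich and 0.562 M to 1.04 M in gene-poor libraries. On shares of the summed core genes the median difference was 0.11 log2, with 91 genes above 0 and 80 below, and 0 of 171 genes passed the adjusted threshold (0%, smallest adjusted p in limma 0.250), while 16 (9.36%) had an unadjusted p under 0.05, 14 of them higher. On shares of the column sum the median was 0.027 log2, with 87 genes higher, 84 lower and 0 calls. The 3 calls were also lost with 9 of the 13 libraries left out singly, and there were 16 without Low replicate 11, 5 without High replicate 12, 4 without Low replicate 5 and 1 without Low replicate 20. The median difference was 0.27 log2 without High replicate 14 and 0.30 without Low replicate 11.

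ENSBTAG00000016370 had the smallest p. Its values were 1194 to 2625 in gene-rich libraries (median 1923) and 141 to 1112 in gene-poor ones (median 400). The sets did not overlap, and the highest gene-poor library was Low replicate 20. Gene-rich libraries lay wholly above gene-poor ones for 3 of the 171 core genes, of which only 1 was called, and wholly below for 0. Its difference was 2.31 log2 (SE 0.55, 95% interval 1.15 to 3.47, adjusted p in limma 0.0383), and it was 1.93 log2 on shares of the core total (adjusted p in limma 0.250). In the in-between libraries it ran from 423 to 2739, across both sets.

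The other 2 calls were named after their values were seen. ENSBTAG00000032884 stood at 3062 to 16813 in gene-rich libraries (median 8436) and at 926 to 5056 in gene-poor ones (median 1350). High replicate 12 and Low replicate 11 were the gene-poor libraries that reached into the gene-rich range. Its difference was 2.20 log2 (SE 0.54, adjusted p in limma 0.0383) and 1.83 log2 on shares of the core total (adjusted p in limma 0.358).

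ENSBTAG00000003280 stood at 3211 to 13637 in gene-rich libraries (median 4146) and at 485 to 3400 in gene-poor ones (median 1151). Only High replicate 12, at 3400, overlapped the gene-rich range. Its difference was 2.09 log2 (SE 0.51, adjusted p in limma 0.0383) and 1.71 log2 on shares of the core total (adjusted p in limma 0.321). The in-between libraries lay from 774 to 7840 for this gene and from 474 to 9320 for ENSBTAG00000032884, so they spanned both sets.

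No core gene was called lower in gene-rich libraries, and the leading ones by unadjusted p are given as values. ENSBTAG00000027024 had 109 to 339 in 5 of the 6 gene-rich libraries and 3161 in High replicate 14, against 244 to 2335 in gene-poor libraries (median 1162). Its difference of -1.33 log2 (SE 0.75, adjusted p in limma 0.338) was -2.20 log2 (adjusted p in limma 0.103) without that library. ENSBTAG00000018629 stood at 329 to 893 in gene-rich (median 583) and at 517 to 3686 in gene-poor libraries (median 1038), a difference of -0.94 log2 (SE 0.54, adjusted p in limma 0.340). The sets overlapped for both genes.

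**Figure D5:**
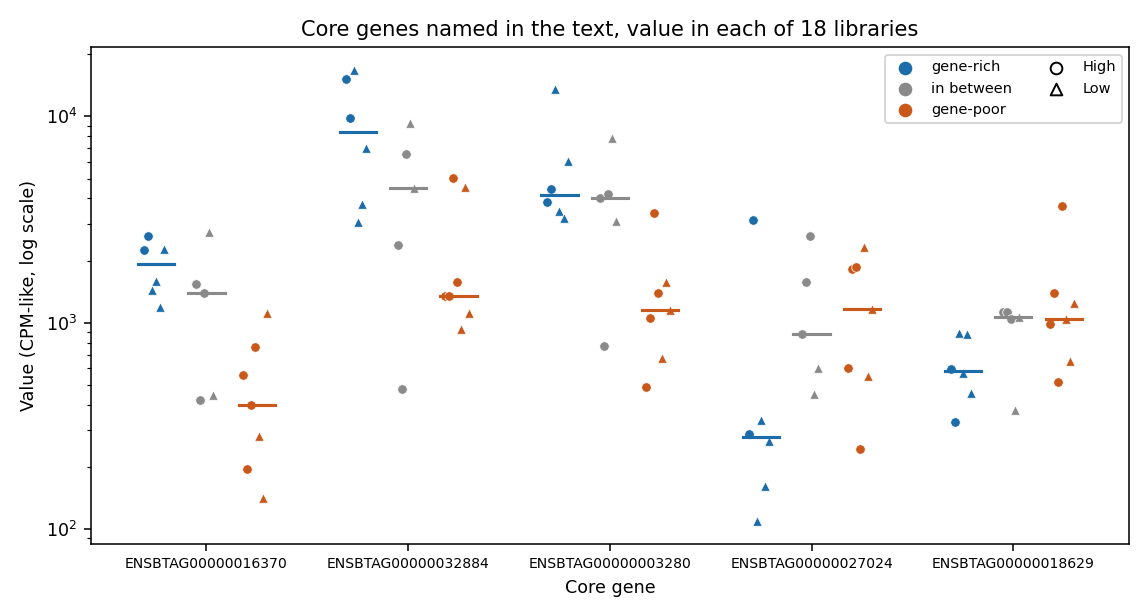
Each point is the value (CPM-like, log axis) of a named core gene in 1 library, coloured by set, shaped by fertility class, with a line at the median of each set. For the 3 genes at the left the gene-rich medians of 1923, 8436 and 4146 stand above the gene-poor medians of 400, 1350 and 1151, while for the remaining genes the sets overlap widely.

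The difference between gene-rich and gene-poor libraries was not shown to depend on fertility class for any core gene. The interaction term gave 0 of 171 genes (0%) at an adjusted p under 0.05 in limma, with a smallest adjusted p of 0.902, and 5 at an unadjusted p under 0.05. The median difference was 0.53 log2 within High and 0.54 log2 within Low, with 0 calls in each. Within High it rests on 2 gene-rich libraries.

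Core levels varied between libraries of both sets. The median SD of a core gene was 0.77 log2 among gene-rich and 1.01 log2 among gene-poor libraries, and 128 of the 171 genes had the larger SD among gene-poor ones. The difference of -0.24 log2 was within what reassigning the libraries gives (two-sided exact permutation within class, p = 0.330, adjusted 0.494). Low replicate 11 carried most of it, as it was -0.06 log2 without that library (exact permutation p = 0.871). Spearman correlations over the core genes had a median of 0.79 among gene-rich libraries (0.62 to 0.85, 15 pairs), 0.76 among gene-poor ones (0.38 to 0.84, 21 pairs) and 0.71 between the sets (0.49 to 0.84, 42 pairs). They are across genes within pairs of libraries, which share libraries and are not independent.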

How the data were processed

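Messenger RNA of 20 sperm libraries was measured by sequencing. Without roles, the submitters' processing notes list edgeR 3.5, R 3.4, STAR 2.6.1, cutadapt 2.6, FastQC 0.11.8 and build UMD3.1; how genes were counted, on which strand and with which annotation is not given in the sources used here. What the authors deposited is 1 normalised signal value per gene and library. Dividing a column by its smallest value gave whole reads with a largest deviation of 0.0143 of a read. For 13 columns this step could not be checked independently, since few of their values are low, so read totals (9426708 to 49451216) rest on the smallest value there, and since no gene-poor library is among the 7 checked ones, no test of counts was run on reads. The table holds 27607 Ensembl identifiers; 0 matched the reference gene table (37063 genes), so fixed lists of marker symbols were not tested and no sequence is shown.

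Gene-rich (6), gene-poor (7) and in-between (5) libraries followed from the number of genes above 0. The members and comparisons were chosen with earlier results of these data known. Core genes (1 or more in all 18 libraries) were fitted with limma 3.58.1 (R 4.3.3), with a mean-variance trend, on log2(value + 1), with class as covariate, two-sided, with Benjamini-Hochberg adjustment over the 171 genes and a threshold of 0.05. Fold changes on this scale understate those of low genes. Permutation tests enumerated all assignments within class, counting those at least as far from the mean of all assignments, and Fisher's exact test was two-sided (Python 3.11.15, scipy 1.17.1, numpy 2.4.6); their p-values were adjusted over 3 tests. Core genes were named by smallest p among those whose medians and fitted difference agree in sign, 1 higher and 2 lower in gene-rich libraries. Of the added genes, 1 was named: among those in every gene-rich library, the one in the fewest gene-poor libraries and with the highest mean. The limma and permutation steps were tested on simulated data in which each gene varied independently. Shifts common to many core genes were not simulated, so this check does not cover them. Reads were taken as they are, without molecular identifiers, so limits for a count of 0 cover counting error only. The series' design text speaks of pools per bull, and the labels number the libraries without naming bulls, so p-values measure the spread between libraries, which may in part be technical.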

Additional observations from a re-analysis of the deposited data

Results flagged for a closer look

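In 25 sets of values (7 library measures and 6 named genes, in gene-rich and in gene-poor libraries, without 1 set that was 0 throughout), a library far above or below the rest was looked for. The search used Dixon's test on values without log transformation. About 1 in 20 such sets gives one by chance where values follow a normal distribution, and 5 were found. That rate may not hold here, since this was not checked and the sets share libraries. High replicate 14 stood far above the other gene-rich libraries with 49.5 M reads (M, 1000000 reads). It also stood far above them for ENSBTAG00000027024, at 3161. For ENSBTAG00000003280, Low replicate 1 stood above the other gene-rich libraries at 13637 and High replicate 12 above the other gene-poor ones at 3400. For ENSBTAG00000018629, High replicate 16 stood above the other gene-poor libraries at 3686.

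The profile deposited both as High replicate 9 and as Low replicate 8 was used in neither set and held 1247 genes, a number within the gene-poor range. Of the 3757 genes that gene-rich libraries held and gene-poor ones did not, it held 177. These were 14.2% of its genes, counted against all 7 gene-poor libraries. Held-out gene-poor libraries gave 9.18% to 17.7%, counted against the other 6, so the shares are not strictly comparable.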

How the results depend on the processing

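The number of core genes called, 3 on the deposited scale, was the least stable result. It was 0 on shares of the core total, with size factors of the core genes, on shares of the column sum, with libraries divided at the median gene number, in limma without trend, and within High or within Low alone. It was 6 without the class, 11 with the identical profile counted once as gene-poor, and 1 with the log2 read total as a covariate, where that gene was ENSBTAG00000027024, lower in gene-rich libraries at -4.24 log2 (adjusted p in limma 0.0466). It ran from 0 to 16 when each library was left out. The cause was not tested. The fits within 1 class were added after the data were seen, as was the share of the column sum for the spread. The median core difference of 0.48 log2 was 0.11 on shares of the core total, 0.021 with size factors, 0.027 on shares of the column sum and 0.060 with the read total as a covariate, and ran from 0.27 to 0.60 with each library left out. Within High, ENSBTAG00000027024 changed direction to 0.19 log2. The difference in reads kept its direction and passed the threshold in all 3 alternatives and with each library left out (7.99 M to 17.4 M; M, 1000000 reads). The difference in spread, -0.24 log2, passed in 1 of 7 alternatives, at -0.30 log2 with libraries divided at the median gene number (exact permutation p = 0.0331), and ran from -0.33 to -0.06 with each library left out. With genes seen at 1 or more, or after thinning, 3686 and 3727 genes were added in place of 3757. Thinning could remove few genes, so its result was largely set beforehand. The planned tests of counts with edgeR and DESeq2 were not run, as no gene-poor library passed the check of reads. No paired analysis was possible because the replicate numbers of High and Low do not repeat.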

Other observations

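The identical profile held 162 of the 171 core genes. The 9 it lacked were not the lowest of the core, since their means over the gene-rich libraries ran from 317 to 2660. It saw 53.1% of the genes whose in-between mean was 100 to 1000 and 93.8% of those at 1000 to 10000.

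Core levels of the in-between libraries did not lie between the sets as a rule. For 85 of the 171 core genes the in-between median lay between the gene-rich and the gene-poor median.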
